A study of Mus musculus with 4 samples.

Results

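The Ly6 and uPAR family surface genes followed here are 10 mouse genes: Lypd3, Ly6d, Lypd8, Psca, Ly6a, Ly6c1, Ly6e, Plaur, Lypd1 and Lypd6. They were found by gene symbol among the probes of the arrays, which gave 12 of the 39429 gene probes and 10 of the 21501 genes tested. The 10 genes were picked with the difference between mutant and control ureters already known, because Lypd3 and Lypd8 had moved in opposite directions. Their values in that comparison are therefore a description and carry no test. All 10 genes kept their probes after the filter on dim signals, and every spot of the 12 probes was well above background in all 8 RNAs.

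Proteins of this family carry the Ly6/uPAR domain, a small fold with finger-like loops held together by disulfide bonds between conserved cysteines. Most are tethered to the outer face of the cell membrane by a glycosylphosphatidylinositol (GPI) anchor, and some are secreted. Several are used as surface markers: Lypd3 and Ly6d of stratified epithelia, Psca of prostate and bladder epithelium, and Ly6a and Ly6c1 of blood and endothelial cells. Plaur is the receptor of the protease urokinase, and Lypd1 and Lypd6 belong to a branch that resembles snake neurotoxins and acts on nicotinic acetylcholine receptors.

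RNA of whole ureters from NMRI mouse embryos at stage E15.5 was measured on 4 two-colour arrays. The mutant embryos, called cKO below, carried Pax2-cre/+ and, at the targeted locus, Trp63(dN-flox/dN-flox). The controls were Trp63(dN-flox/?), with no cre listed. The floxed allele concerns ΔNp63, the p63 form of basal epithelial cells, and the recombinase is driven by Pax2 sequences, which are active in the duct that gives rise to the ureter epithelium. Replicates 1 and 2 compared female RNAs and replicates 3 and 4 male RNAs, with cKO in the red channel in replicates 1 and 3 and in the green channel in replicates 2 and 4. Cre and loss of ΔNp63 cannot be told apart in this design, and the labels do not say whether an RNA came from 1 embryo or from several, so errors measure the spread between these RNAs.

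Probe sequences with cysteine codons spaced as in the domain are given first. Of the 12 probes, 5 held such codons, and the share over all probes of the array was not counted. Capitals mark codons for cysteine (TGT or TGC) in a reading frame without a stop codon. The Psca probe (mm9, chr15:74546879-74546938, plus strand) and the Ly6g probe (chr15:74989023-74989082, plus strand) hold 2 adjacent cysteine codons, 4 other codons and a further cysteine codon followed by one for asparagine, an arrangement known from the end of the domain. Ly6g is a related gene outside the 10 whose result is given further on.
Psca: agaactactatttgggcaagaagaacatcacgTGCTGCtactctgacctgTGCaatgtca
Ly6g: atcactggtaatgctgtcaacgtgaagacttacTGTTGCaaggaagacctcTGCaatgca
The probes of Lypd8 (chr11:58200298-58200357, plus strand) and of Lypd6 (chr2:50044269-50044328, plus strand) hold 2 cysteine codons with 5 codons between them, and a probe of Ly6c1 (chr15:74877785-74877844, minus strand) holds 2 with 6 codons between them.
Lypd8: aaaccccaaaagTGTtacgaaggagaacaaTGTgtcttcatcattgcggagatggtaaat
Lypd6: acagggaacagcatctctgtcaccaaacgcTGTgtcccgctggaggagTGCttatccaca
Ly6c1: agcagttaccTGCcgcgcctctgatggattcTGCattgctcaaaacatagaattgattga
Of the remaining 8 probes, which are not shown, that of Ly6e also held cysteine codons 5 codons apart. The frames were read from the probes alone and were not compared with a protein. No probe of the 10 genes, each 60 bases long, shared more than 16 bases in a row with a probe of another gene. Whether a probe lies in an exon's coding part or in an untranslated region was not analysed here.

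The green channel had median signals of 382 to 416 per array and the red channel 519 to 617, and no spot was saturated. Trp63, the targeted gene, was lower on all 4 arrays, with a mean log2 ratio of -1.37 ± 0.18 (SD, n = 4) or 2.59-fold (limma adjusted p = 0.00323). Of the 21501 genes, limma called 153 lower and 113 higher at adjusted p under 0.05. At an unadjusted p under 0.05, 927 genes were lower and 801 higher. The arrays did not agree equally. Across genes, Pearson's r between the ratios was highest for replicates 2 and 3 (0.62) and lowest for replicates 2 and 4 (-0.06, Spearman's rho -0.32). Spearman's rho was also negative for replicates 3 and 4 (-0.21). It was 0.04 for replicates 1 and 2 and from 0.22 to 0.58 for the remaining pairs. Values with single arrays left out are therefore given where they differ.

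Lypd3, a surface protein of basal and suprabasal cells in stratified epithelia, was the member with the deepest decrease. Its probe (A_51_P150876, mm9, chromosome 7, 25425989 to 25426048) had normalised log2 intensities of 11.3, 11.09, 11.84 and 11.25 in controls 1 to 4 and of 9.43, 9.41, 9.72 and 9.48 in the cKO RNAs of the same arrays. The 2 groups did not overlap, and 1.38 log2 units separated the lowest control from the highest cKO RNA. On the arrays cKO over control came to log2 ratios of -1.87, -1.68, -2.12 and -1.77, which average -1.86 ± 0.19 (SD, n = 4), a 3.63-fold decrease. The 4 arrays lay within 0.44 log2 units of each other, over both sexes and both dye orientations. Only 0.0465% of all genes had a lower mean ratio. In RNA of a whole organ, fewer cells that express a gene and less of its RNA per cell cannot be told apart, here or for any gene below.

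Ly6d, a marker of keratinocytes and of early B cells, followed Lypd3. Its probe (A_51_P343517, chromosome 15, 74592551 to 74592610) had log2 intensities of 10.26, 10.66, 11.08 and 10.46 in the controls against 9.06, 9.32, 9.40 and 9.52 in the cKO RNAs. The groups lay 0.74 log2 units apart, and the cKO RNAs were closer to each other (SD 0.19) than the controls were (SD 0.35). Its ratios were -1.19, -1.33, -1.69 and -0.94, with a mean of -1.29 ± 0.31 (SD, n = 4), a 2.44-fold decrease. The decrease was deepest in replicate 3, which also had the deepest decrease of Lypd3.

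Lypd8 encodes a protein of the large intestine's epithelium that keeps flagellated bacteria away from the mucosa. Its probe (A_52_P670766, chromosome 11, 58200298 to 58200357) had log2 intensities of 7.89, 8.38, 7.83 and 7.79 in the controls and of 9.37, 9.43, 9.52 and 9.65 in the cKO RNAs. All cKO RNAs lay above all controls, by at least 0.99 log2 units, and control 2 stood above the other controls. As log2 ratios the arrays gave 1.48, 1.05, 1.69 and 1.86, with a mean of 1.52 ± 0.35 (SD, n = 4), a 2.87-fold increase. The smallest increase was that of replicate 2, the array with the highest control. Of all genes, 99.96% had a lower mean ratio, so that Lypd3 and Lypd8 stood near the opposite ends of the distribution.

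Psca, a surface antigen of prostate and urothelium, showed no common direction. Its probe (A_51_P253897) had log2 intensities of 10.72, 10.45, 10.95 and 10.02 in the controls and of 10.33, 10.66, 11.22 and 10.69 in the cKO RNAs, which overlapped. The log2 ratios were -0.39, 0.21, 0.26 and 0.67, a mean of 0.19 ± 0.43 (SD, n = 4). Replicate 1 was the only array on which it was lower in cKO, and replicate 4 gave the largest increase. The mean was 0.38 without replicate 1 and 0.03 without replicate 4.

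**Figure D1:**
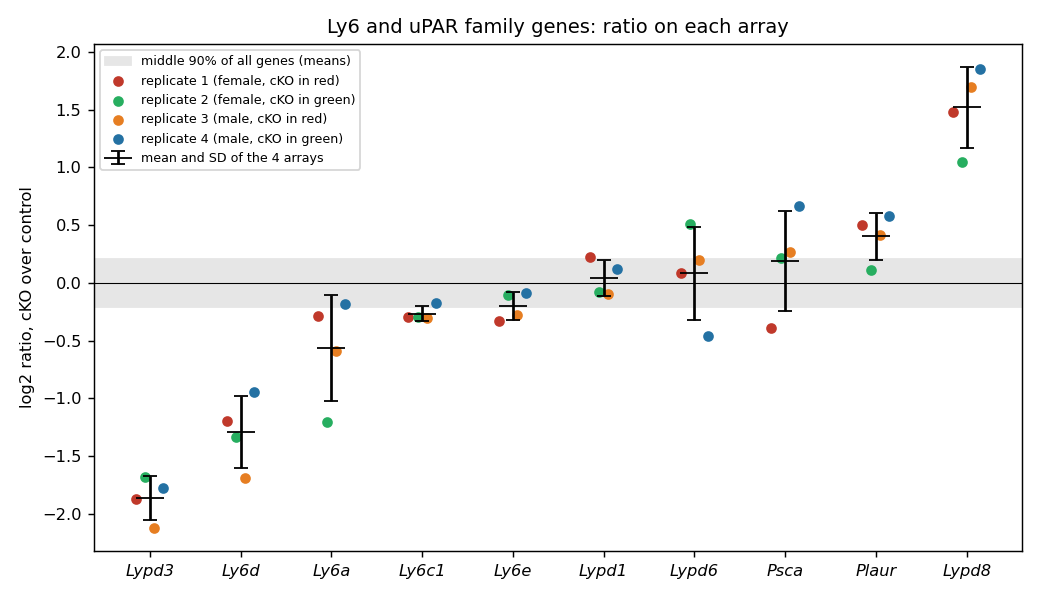
Log2 ratio of cKO over control (vertical axis) for each of the 10 genes on each of the 4 arrays; black bars are the mean and SD of the arrays, and the grey band holds the mean ratios of the middle 90% of all genes, from -0.21 to 0.20. Lypd3 (-1.86) and Ly6d (-1.29) lie below the band on every array and Lypd8 (1.52) above it, whereas the arrays of Psca and Lypd6 fall on both sides of 0.

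Ly6a, known as Sca-1 and used to mark blood stem cells and many endothelial cells, was lower on all 4 arrays but unevenly so. Its probe (A_51_P265495, chromosome 15, 74825553 to 74825612) had log2 intensities of 11.32, 12.08, 11.62 and 11.48 in the controls and of 11.03, 10.88, 11.03 and 11.3 in the cKO RNAs. The groups missed overlapping by only 0.03 log2 units. Its log2 ratios were -0.29, -1.20, -0.59 and -0.18, with a mean of -0.57 ± 0.46 (SD, n = 4), a 1.48-fold decrease. Replicate 2, which had the highest control and the lowest cKO level, weighed most: without it the mean was -0.35. The SD of Ly6a exceeded that of 97.8% of all genes, with a median SD of 0.16.

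Ly6c1, a surface protein of endothelial cells, monocytes and T cells, gave small and even decreases. Its brighter probe (A_55_P2064771, chromosome 15, 74875495 to 74875554) had control levels of 13.14, 13.3, 13.31 and 13.17 and cKO levels between 12.85 (replicate 1) and 13.0 (the others). This gave log2 ratios of -0.29, -0.30, -0.30 and -0.17, with a mean of -0.27 ± 0.06 (SD, n = 4), a 1.20-fold decrease. The other probe (A_55_P1961499), whose sequence is shown above, gave -0.15, -0.09, -0.33 and -0.18, a mean of -0.19 ± 0.10 or 1.14-fold, and its cKO and control levels overlapped. Both probes were thus lower on every array, while only the brighter one separated the groups.

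Ly6e, an interferon-inducible protein of many cell types, was also lower on every array by a small amount. Its probe (A_55_P2031436, chromosome 15, 74789592 to 74789651) had log2 intensities of 13.58, 13.4, 13.4 and 13.17 in the controls and of 13.26, 13.3, 13.11 and 13.08 in the cKO RNAs. The levels overlapped between the groups. The log2 ratios were -0.33, -0.11, -0.28 and -0.09, a mean of -0.20 ± 0.12 (SD, n = 4).

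Plaur, the urokinase receptor, was higher on every array. Its probe (A_52_P681310, chromosome 7, 25260569 to 25260628) had log2 intensities of 12.22, 12.63, 12.5 and 12.22 in the controls and of 12.72, 12.74, 12.92 and 12.8 in the cKO RNAs. The groups lay 0.09 log2 units apart, and as with all other members except Lypd1 the controls spread more (SD 0.21) than the cKO RNAs (SD 0.09). The arrays gave log2 ratios of 0.50, 0.11, 0.42 and 0.58, with a mean of 0.40 ± 0.21 (SD, n = 4), a 1.32-fold increase. Replicate 2 gave the smallest increase, as it did for Lypd8.

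Of 20 listed genes of the urokinase system around Plaur (protease, inhibitors, co-receptors and integrins), 19 were tested and limma called none in either direction. An unadjusted p under 0.05 was reached by 1 gene in each direction, beside 927 lower and 801 higher of all 21501 genes. The gene that was higher, the endocytic receptor gene Lrp2, had a mean log2 ratio of 0.37 ± 0.32 (SD, n = 4, limma adjusted p = 0.200). The result of the lower gene is not reported here. The integrin gene Itga3 stood at -0.21 ± 0.34 and did not pass (limma unadjusted p = 0.0534, adjusted p = 0.638). Plau, which encodes urokinase itself and is named here as the ligand of Plaur, stood at 0.11 ± 0.19 (adjusted p = 1). The median of the 19 genes was -0.04, against -0.000237 over all genes. Without replicate 4, 3 of the list were called lower, and without replicate 2, 1 was called higher. Of all genes, 855 were called lower without replicate 4 and 430 higher without replicate 2, in fits that leave 1 residual degree of freedom.

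Lypd1 and Lypd6, the members of the neurotoxin-like branch, had mean ratios near 0. The Lypd1 probe (A_51_P497395, chromosome 1, 127768639 to 127768698) had log2 intensities of 7.68, 7.96, 7.70 and 7.70 in the controls and of 7.90, 7.88, 7.61 and 7.82 in the cKO RNAs. Its ratios of 0.22, -0.08, -0.09 and 0.12 gave a mean of 0.04 ± 0.15 (SD, n = 4), which became -0.02 without replicate 1. Lypd6, which is also known to enhance Wnt signalling, was measured by 2 probes. The brighter probe of Lypd6 (A_52_P376169, chromosome 2, 50047988 to 50048047) had levels of 12.96, 12.26, 12.71 and 12.97 in the controls and of 13.05, 12.77, 12.91 and 12.51 in the cKO RNAs. Its ratios of 0.09, 0.51, 0.20 and -0.46 gave a mean of 0.08 ± 0.40, with replicates 2 and 4 pulling in opposite directions. The mean was -0.06 without replicate 2 and 0.26 without replicate 4. The other Lypd6 probe (A_55_P2087989) followed the same order of arrays, with ratios of 0.10, 0.37, 0.14 and -0.22 and a mean of 0.10 ± 0.24.

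Of 16 listed subunits of nicotinic acetylcholine receptors, 12 were tested and limma called none. The only one past an unadjusted p of 0.05 was Chrna1, the muscle subunit, at -0.37 ± 0.36 (SD, n = 4, limma adjusted p = 0.521). Over all 21501 genes, 927 were lower at that unadjusted p. Chrna3, Chrna10, Chrnb3 and Chrne had no probe that passed the filter. The median of the 12 was -0.01.

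**Figure D2:**
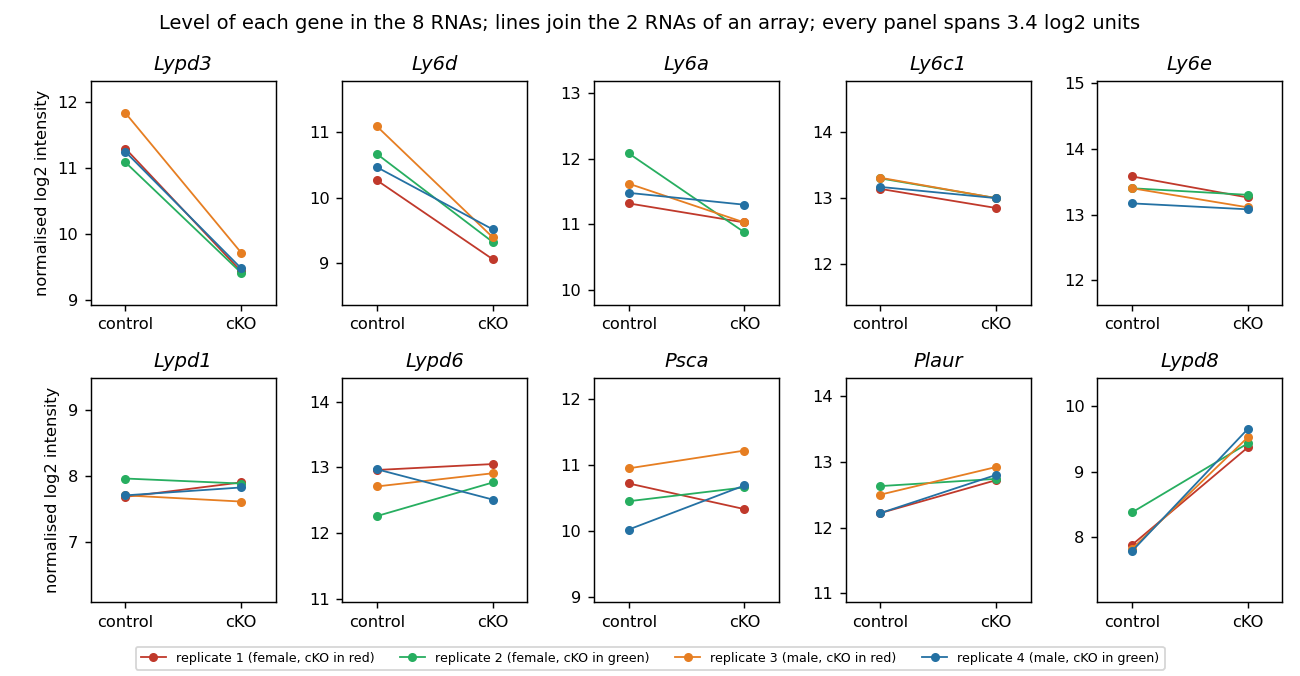
Normalised log2 intensity of each gene in the 4 control and 4 cKO RNAs, with a line joining the RNAs of 1 array; every panel spans the same number of log2 units but starts at its own level. The lines of Lypd3, Ly6d and Lypd8 all slope the same way within a gene and end in separate groups (gaps of 1.38, 0.74 and 0.99 log2 units), and those of Psca and Lypd6 cross.

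Over all 10 genes, 3 passed limma's threshold in the comparison that chose them, Lypd3 and Ly6d lower and Lypd8 higher, where 1.24% of all genes did. The levels of the 4 cKO and 4 control RNAs did not overlap for 6 of the 10 genes, 4 lower (Lypd3, Ly6d, Ly6a, Ly6c1) and 2 higher (Lypd8, Plaur), beside 6.38% of all genes (3.33% lower and 3.05% higher). The ratio had the same sign on all 4 arrays for 7 of the 10, beside 15.3% of all genes, and the median of the 10 means was -0.08. Since the genes were chosen on these values, nothing is read from the counts. Leaving out an array changed them: without replicate 4, 4 were called lower (Ly6a and Ly6c1 added) and 2 higher (Lypd6 added), and without replicate 2, 2 were called higher (Plaur added). Without replicate 1, Ly6a was added to those lower. Calls over all genes rose as well, to 855 lower and 753 higher without replicate 4 and to 509 and 430 without replicate 2. A fit on 3 arrays leaves 1 residual degree of freedom, so its calls are not comparable with those on 4 arrays. Without the filter on dim probes only Lypd3 passed, and with the deposited table none of the 10 did. The distance between 2 genes over the 4 log2 ratios (Euclidean) was 1.20 between Lypd3 and Ly6d, 1.62 between Ly6d and Ly6a and 6.81 between Lypd3 and Lypd8. Several pairs with smaller changes lay closer, the closest being Ly6e and Ly6c1 at 0.21.

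Sex and dye had no part in choosing the genes and were tested. None of the 10 genes had a difference of the cKO effect between male and female arrays at limma's adjusted p under 0.05, where 0.0698% of all genes did, and 1 of the 10 passed an unadjusted p of 0.05. That gene was Psca, whose mean ratio was -0.09 on the female and 0.46 on the male arrays, a difference of 0.55 (SE 0.27, unadjusted p = 0.041, limma adjusted p = 1). Lypd8 came next, with 1.26 on the female and 1.77 on the male arrays, a difference of 0.51 (limma adjusted p = 1). The SE in this fit was 0.27 for every gene, because with 1 residual degree of freedom limma gave all genes the same variance. For Lypd3 the female and male means were -1.77 and -1.95, and for Ly6d -1.26 and -1.31.

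The dye effect, fitted as red over green at equal RNA, passed the threshold for none of the 10 genes and for 0% of all genes, with none of the 10 past an unadjusted p of 0.05. It was largest for Psca, at -0.25 (SE 0.13, limma adjusted p = 1.00), whose ratios averaged -0.06 with cKO in red and 0.44 with cKO in green. Levels of male and female RNAs, compared between arrays, differed at limma's adjusted p under 0.05 for none of the 10 genes and for 0.0186% of all genes. Ly6e passed an unadjusted p of 0.05, with a mean log2 level of 13.38 in female and 13.19 in male RNAs, a difference of -0.20 (SE 0.06, unadjusted p = 0.0127, limma adjusted p = 0.256). Ly6d and Lypd3 stood 0.29 and 0.26 higher in male RNAs (limma adjusted p = 0.438 and 0.442). This fit took the 8 channels with a correlation of -0.20 between the 2 channels of a spot, whereas sex differs only between arrays. Its SE and p therefore do not rest on the spread between the 2 female and 2 male arrays alone.

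Psca, Ly6d, Ly6e, Ly6a and Ly6c1 lie in the Ly6 gene cluster of chromosome 15, within 331 kb of each other as measured between probes. Position in the cluster did not go with one direction: Ly6d (-1.29) lies 45.7 kb from Psca (0.19), and between them Slurp1, Lypd2, Slurp2 and Lynx1 had means from -0.07 to 0.39. Ly6k, 80.7 kb from Psca, stood at -0.02. Among the 19 other genes with a probe within 500 kb of a member in this cluster, limma called 2 higher and none lower (0.526% of all genes were called higher and 0.712% lower). At an unadjusted p under 0.05, 5 were higher (these 2, Ly6f, whose probe was dim, and 2 unnamed features), as were 801 of all 21501 genes. One of the 2 called genes was Ly6g, a marker of neutrophils, and the other BC025446 (probe at chromosome 15, 75052403 to 75052462), at 0.94 ± 0.26 (SD, n = 4, adjusted p = 0.0197).

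Ly6g had log2 intensities of 11.79, 12.22, 11.98 and 11.98 in the controls and of 12.89, 12.64, 12.95 and 13.04 in the cKO RNAs, without overlap. Its ratios of 1.10, 0.43, 0.97 and 1.06 gave a mean of 0.89 ± 0.32 (SD, n = 4), or 1.85-fold higher (limma adjusted p = 0.0309). As for Lypd8 and Plaur, replicate 2 gave the smallest increase. The Ly6g probe shares 28 bases in a row with the probe of an unnamed transcript (ENSMUST00000089689, chromosome 15, 75066100 to 75066159), which stood at 0.61 ± 0.31, so the transcripts behind these 2 probes may not be separable on this array.

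**Figure D3:**
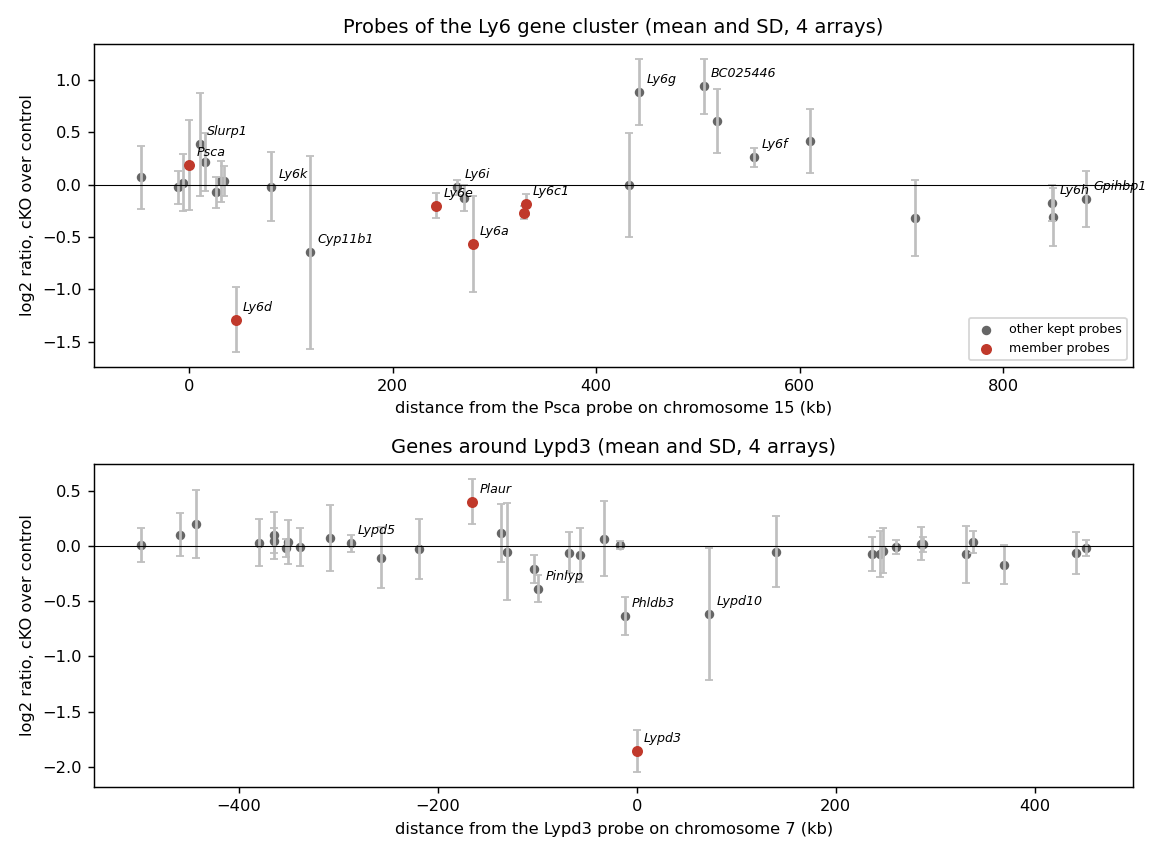
Mean log2 ratio of cKO over control with the SD of the 4 arrays for kept probes, by distance in kb from the Psca probe along the chromosome 15 cluster (top) and from the Lypd3 probe on chromosome 7 (bottom); probes of the 10 genes are red. In the cluster Ly6d (-1.29) lies among probes near 0, and on chromosome 7 Lypd3 (-1.86), Phldb3 (-0.63) and Lypd10 (-0.62) lie below the rest and Plaur (0.40) above.

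Lypd3 and Plaur share a neighbourhood on chromosome 7. Of the 35 other genes with a probe within 500 kb of that of Lypd3, limma called 1 lower and none higher (0.712% and 0.526% of all genes). Unadjusted p under 0.05 was reached by 4 lower genes (Phldb3, Pinlyp, Lypd10 and Irgq) and no higher one. Over all 21501 genes it was reached by 927 lower and 801 higher ones. The called gene was Phldb3, whose product has a pleckstrin homology-like domain and whose probe lies 11.7 kb from that of Lypd3, at -0.63 ± 0.17 (SD, n = 4) or 1.55-fold lower (adjusted p = 0.0372). The mean over all kept probes of Phldb3 was -0.44 and missed the threshold (adjusted p = 0.0775). Around Lypd8, limma called 1 of 23 neighbours, Fam183b, 406 kb away, at 1.06 ± 0.32 (adjusted p = 0.0244). The medians of the neighbours were -0.02 around Lypd3 and -0.01 around Lypd8.

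Beyond the 10 genes, 37 further family genes were listed, of which 32 had a probe and 22 a probe that passed the filter. Limma called 1 of the 22, Ly6g, higher and none lower. An unadjusted p under 0.05 was reached by Lypd10 and Pinlyp, which were lower, and by Ly6g, Ly6f and Lypd6b, which were higher. Of all 21501 genes, 927 were lower and 801 higher at that p. The median of the 22 was 0.01, with 11 genes above and 11 below 0. After Ly6g the means farthest from 0 were those of Lypd10 (-0.62 ± 0.60, adjusted p = 0.218), Pinlyp (-0.39 ± 0.12, adjusted p = 0.0926), Slurp1 (0.39 ± 0.49, adjusted p = 0.746), Ly6f (0.26 ± 0.09, adjusted p = 0.325) and Lypd6b (0.26 ± 0.24, adjusted p = 0.610). Lypd10 and Pinlyp lie 73.2 kb and 99.1 kb from Lypd3. The ratios of Lypd10 were -1.25, -0.64, -0.77 and 0.19, so that replicate 4 went against the others. Pinlyp passed the filter only through the controls, with a share of spots well above background as low as 0.25 in a cKO RNA, so its ratio and p rest partly on signals near background. The Ly6f probe was dim too, with such shares as low as 0.5 in a control and 0.75 in a cKO RNA. Slurp1 is a secreted member that acts on keratinocytes, and Lypd6b is the closest relative of Lypd6. Without replicate 2, 4 of the list were called higher and 1 lower, and without replicate 4, 2 higher and 2 lower. Without replicate 3, 1 was called higher and 1 lower. These fits, too, leave 1 residual degree of freedom.

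**Figure D4:**
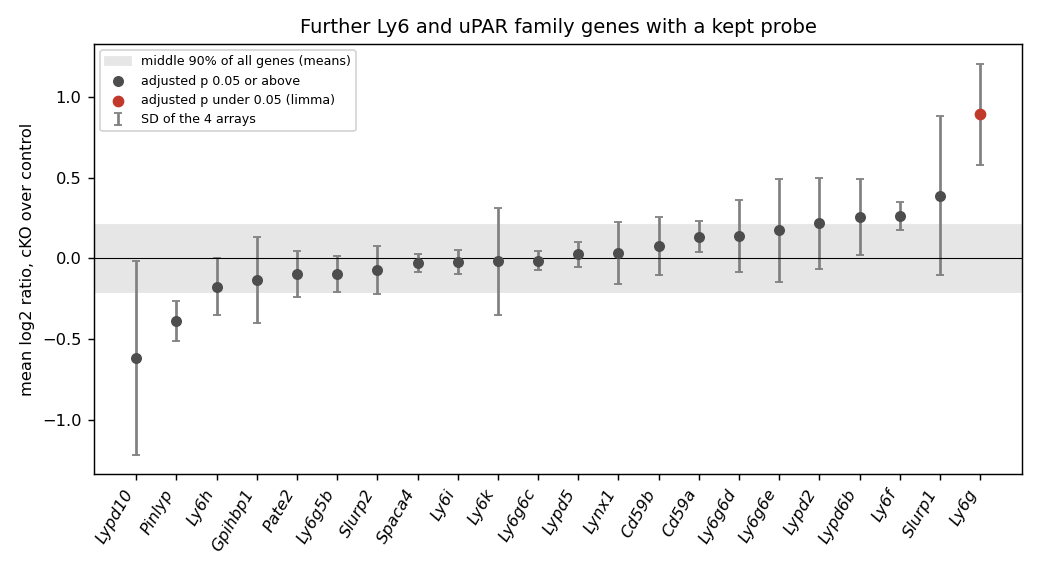
Mean log2 ratio of cKO over control with the SD of the 4 arrays for the 22 further family genes that passed the filter, ordered by their mean; the grey band holds the middle 90% of all genes. Ly6g (0.89, red) is the gene called by limma, and 11 of the 22 lie above 0.

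Proteins reported to bind or cleave the Lypd3 product were listed as well: 10 genes, of which 9 were tested. Limma called 1 lower, Itgb4, the integrin subunit of hemidesmosomes, at -1.45 ± 0.36 (SD, n = 4, adjusted p = 0.0104), and 3 were lower at an unadjusted p under 0.05. Over all 21501 genes, 0.712% were called lower and 927 were lower at that unadjusted p. Lama3, a laminin chain of the same structure, stood at -0.52 ± 0.16 (adjusted p = 0.0718), the galectin gene Lgals3 at -0.22 ± 0.14 (adjusted p = 0.549) and the sheddase gene Adam10 at 0.18 ± 0.28 (adjusted p = 0.974). The median of the 9 was -0.13. Without replicate 2 or without replicate 4, 2 of the list were called lower, in fits that leave 1 residual degree of freedom. Of 29 genes that build, transfer or remodel the GPI anchor, 28 were tested and limma called none. An unadjusted p under 0.05 was reached by 3, beside 927 lower and 801 higher of all 21501 genes. The 3 were Gpld1, a phospholipase that cuts the anchor (-0.46 ± 0.16, adjusted p = 0.110), and the mannosyltransferase gene Pigz (-0.32 ± 0.15, adjusted p = 0.182), both lower, and Pigw, an acyltransferase gene (0.25 ± 0.22, adjusted p = 0.609). Without replicate 4, 2 of the 28 were called lower and 1 higher, and without replicate 2, 1 lower, in the same kind of fit.

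The genes whose 4 log2 ratios lay closest to those of Lypd3 over the 4 arrays were Trim29 (Euclidean distance 0.125, mean -1.88), Upk3bl (0.348), Slc14a1 (0.356), Wnt10a (0.371) and Zfp750 (0.418). Slc14a1 encodes a urea transporter of urothelium, and Zfp750 a factor of epidermal differentiation. Closest to Lypd8 were Ttr, the carrier of thyroid hormone (distance 0.235, mean 1.59), Slc23a3 (0.402), Pla2g10 (0.425), the peptide hormone gene Cck (0.427) and the Wnt inhibitor gene Dkk1 (0.438). These are the same measurements that placed Lypd3 and Lypd8 near the ends of the distribution, so the likeness is a description of these arrays.

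Markers of the cells in which these genes are known were read on the same arrays. Like all lists here, the marker lists were chosen with earlier results of these data known, so their counts are a description. All 8 basal and stratified epithelial markers were called lower, among them Krt5 (-1.87 ± 0.42, SD, n = 4, limma adjusted p = 0.00347) and Krt14 (-0.98 ± 0.29, adjusted p = 0.0138), and their summed intensity was 19260 to 26270 in the controls and 7648 to 9293 in the cKO RNAs. Of all genes, 0.712% were called lower and 0.526% higher. Itgb4 is in this marker list and in that of the Lypd3 partners, so its decrease is counted in both. These markers moved with Lypd3 and Ly6d, and their part in those values was not tested. Of 7 superficial urothelial markers, Krt20 was called higher (1.92 ± 0.19, adjusted p = 0.00159) and Upk2 (-0.54 ± 0.11, adjusted p = 0.0367) and Grhl3 (-0.68 ± 0.22, adjusted p = 0.0467) lower, with sums of 302500 to 384700 and 278700 to 332100.

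Of 12 intestinal epithelial markers, set beside Lypd8, 9 were tested and 1 was called higher, Lgals4 (1.14 ± 0.28, SD, n = 4, limma adjusted p = 0.0104), with 3 higher at an unadjusted p under 0.05, the others being Cdh17 (0.78 ± 0.35, adjusted p = 0.068) and Vil1 (0.56 ± 0.28, adjusted p = 0.0942). Of all 21501 genes, 0.526% were called higher and 801 were higher at that unadjusted p. The median ratio of the 9 was 0.17, with 6 above 0 and 3 below. Those below were Guca2a (-0.15), Muc2 (-0.07) and Car1 (-0.04). The summed intensity of the 9 was 4063 to 4752 in the controls and 6903 to 8877 in the cKO RNAs. Cdx2, Alpi and Slc26a3 had no probe above background by the filter. The part of intestinal markers in the Lypd8 value was not tested. For Ly6a, Ly6c1, Ly6e and Ly6g, the 10 endothelial markers had sums of 96230 to 102900 in controls and 101100 to 109800 in cKO RNAs with a median ratio of 0.12, and the 10 macrophage and leukocyte markers sums of 48890 to 53110 and 45460 to 47080 with a median of -0.18. Limma called none of these 20 markers, and 3 leukocyte markers (Cd68, Csf1r and Fcer1g) were lower at an unadjusted p under 0.05, beside 927 of all 21501 genes. The 6 mesenchymal and smooth muscle markers had sums of 369100 to 407400 and 375000 to 449100, with none called and Foxf1 higher at an unadjusted p under 0.05 (0.45 ± 0.31). The lists held no marker particular to neutrophils, the cells that Ly6g marks. The part of these cell types in the Ly6 values was not tested.

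The 250 bases before the RefSeq start (GRCm38.p6) of Lypd3 and of Lypd8 are shown because these genes moved in opposite directions in a mutant of a DNA-binding factor. The window of Lypd3 is chr7:24636320-24636569 (plus strand) and that of Lypd8, for the first of its 2 starts, chr11:58378782-58379031 (plus strand). Capitals mark GC boxes (GGGCGG on either strand).
Lypd3: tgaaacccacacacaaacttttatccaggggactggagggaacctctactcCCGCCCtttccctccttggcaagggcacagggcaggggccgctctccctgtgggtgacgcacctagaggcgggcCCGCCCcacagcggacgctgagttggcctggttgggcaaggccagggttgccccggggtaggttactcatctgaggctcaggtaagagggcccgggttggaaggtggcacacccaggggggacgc
Lypd8: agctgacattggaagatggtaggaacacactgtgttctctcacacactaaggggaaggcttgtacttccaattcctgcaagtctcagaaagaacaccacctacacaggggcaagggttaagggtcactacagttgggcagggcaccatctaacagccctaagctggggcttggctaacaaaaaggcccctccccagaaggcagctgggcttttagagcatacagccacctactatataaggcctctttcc
The Lypd3 window holds 2 GC boxes and 65.2% G and C, more than 83.0% of 32851 promoters. The Lypd8 window holds no GC box and 51.2% G and C, near the median of 52.4%. A GC box occurred in 32.7% of all windows of this length, TATAAA in 12.4% and the 10-letter motif bound by the p53 family in 7.13%, counting both strands. The RefSeq table held 10 such windows for 6 of the 10 genes, and not for Psca, Ly6d, Ly6e and Ly6a. Besides Lypd3, GC boxes were found for Plaur (3), Lypd1 (1 in each window) and Lypd6 (2). TATAAA occurred in 1 Ly6c1 window and the p53 family motif in none of the 10. A match describes letters in the window and not a bound site, and these arrays did not measure binding.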

How the data were processed

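Scanner output as deposited gives a spot intensity per channel, which the authors obtained, per the submitters' processing notes, in Agilent Feature Extraction 10.7.3.1, with probe coordinates of build mm9 per the file headers. The value table the authors deposited holds log2 ratios; set against the arrays' processed signals it ran as cKO over control, with 32.2% to 32.6% of values at exactly 0, for reasons not given in the sources used here. From the mean signals, background was corrected (normexp, offset 50) and ratios were normalised by loess within arrays in limma 3.58.1 (R 4.3.3), without nonuniform spots. Replicate spots (4 per probe) were averaged. Probes stayed in (28611) if, in the control or in the cKO RNA, the share of spots marked well above background reached 0.5 on each array, and the brightest kept probe stood for its gene, with all probes of the 10 genes given. Probes were named by symbol (30385), by accession (1442) or as in the file (7602), with the RefSeq table of GRCm38.p6.

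Ratios were fitted with lmFit and eBayes, with terms for cKO and dye; the array is the pair. Sex differences used a cKO-by-sex term, and sex levels a separate-channel fit after Aquantile (lmscFit). P-values are two-sided, adjusted by Benjamini-Hochberg over all genes. The fit was tested on simulated data. Summed marker intensities are sums of the linear normalised channel values of the tested markers. The 10 genes and all lists were chosen with earlier results of these data known. Named besides the 10 genes are the called genes and up to 3 others with the smallest p of each list (basal markers by example), the 6 family genes farthest from 0, called neighbours and the 5 genes most like Lypd3 and Lypd8. The result of 1 listed gene is not reported here. Alternatives were the processed signals, median centring, no filter, the mean over probes, the deposited table, other model terms and each replicate left out.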

Additional observations from a re-analysis of the deposited data

Results flagged for a closer look

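In groups of 4 values, the highest or lowest was checked for its gap to the nearest other value, as a share of the range, against Dixon's critical value at the 95% level. Of 36 groups of member ratios and levels checked, 4 passed it, where chance alone passes about 5% of groups. Control 2 had the highest Lypd8 level of the controls, at 8.38. The Ly6c1 ratio of the brighter probe in replicate 4, at -0.17, was closer to 0 than the others, and in replicate 1 its cKO level of 12.85 was lower than those of the other cKO RNAs. Control 2 also had the highest Lypd1 level, at 7.96.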

How the results depend on the processing

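The mean ratios of the 10 genes kept their sign under the processed signals, median centring, the mean over kept probes and the deposited table. Lypd8 moved to 1.87 with the processed signals and 1.89 with the deposited table. That table gave 0 genes called lower and 1 higher, and 0 of the 10 genes in either direction; without the filter 55 and 31 genes were, with 1 of the 10 lower (Lypd3) and 0 higher; the cause was not tested. No dye term gave 266 lower and 194 higher, and a cKO-by-sex term 310 and 233. With each replicate left out in turn, 155 to 855 genes were lower and 128 to 753 higher, and of the 10 genes 2 to 4 were lower and 1 to 2 higher. Those fits and the one with a cKO-by-sex term leave 1 residual degree of freedom, so their counts are not comparable with the others. Of the further family, 1 was called lower with processed signals, no dye term, the sex term or no replicate block, 0 to 2 with a replicate left out; with the deposited values or no filter 0 were higher, and 1 to 4 with a replicate left out. Of the Lypd3 partners, 0 were lower with the deposited table or no filter, 2 with no dye term, the sex term or no replicate block, and 1 to 2 with a replicate left out. Of the GPI anchor genes, 1 was lower with processed signals, no dye term, the sex term or no replicate block, 0 to 2 were lower and 0 to 1 higher with a replicate left out; of the urokinase genes, 0 to 3 were lower and 0 to 1 higher. Without the pairing on the array (no replicate block), 218 genes were lower and 169 higher, and Lypd3, Ly6d and Lypd8 were the members called. Ly6g, Itgb4, Phldb3, Fam183b and BC025446 kept their direction and missed the threshold with the deposited table (adjusted p from 0.303 to 0.373) and without the filter (0.0935 to 0.146). With 4 arrays, Psca, Lypd1 and Lypd6 have no settled direction, and the offset of 50 shrinks the ratios of dim probes such as those of Lypd8 and Lypd1.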

Other observations

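Along the chromosome 15 cluster, the probes from 242.7 kb to 330.9 kb beyond Psca (Ly6e, Ly6i, an unnamed transcript, Ly6a and both of Ly6c1) had mean log2 ratios from -0.57 to -0.02. The next probe, NAP072242-1 at 432.2 kb, lies in neither stretch and had a mean of 0.00 ± 0.50. Those from 442.1 kb to 610 kb had means from 0.26 to 0.94: Ly6g (0.89 ± 0.32, SD, n = 4), BC025446 (0.94 ± 0.26), ENSMUST00000089689 (0.61 ± 0.31), Ly6f (0.26 ± 0.09) and the unnamed probe A_55_P1996746 (0.42 ± 0.31). The probes of Ly6g and ENSMUST00000089689 share 28 bases in a row and may not be separate measurements. That of Ly6f was dim, with a share of spots well above background as low as 0.5 in a control. The stretches were delimited after their values were seen and carry no test.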
